A study of Homo sapiens with 12 samples.

Results

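ATF4, its target genes of the amino acid response and 12 cytosolic aminoacyl-tRNA synthetases were followed in the breast cancer cell line MDA-MB-231 (human) under PMA and Ionomycin (P/I). PMA is a phorbol ester that activates protein kinase C, and Ionomycin lets calcium into the cell. The 32 genes were taken by name, by a rule that uses no measured value. The list was chosen with earlier results of these data known. All 32 were found among the 24331 features of the RNA-seq table, each as 1 feature that names no other gene. They are the transcription factors ATF4, CEBPB and CEBPG, 7 enzymes of asparagine, serine, glycine and folate metabolism (ASNS, PSAT1, PHGDH, PSPH, SHMT2, MTHFD2 and ALDH1L2), 5 amino acid transporters (SLC7A11, SLC7A5, SLC3A2, SLC1A5 and SLC38A2), 4 regulators of feedback, glutathione or mTORC1 (CHAC1, TRIB3, SESN2 and DDIT4), the lipoprotein receptor VLDLR, and the synthetases AARS, CARS, EPRS, GARS, IARS, LARS, MARS, NARS, SARS, TARS, WARS and YARS.

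In the integrated stress response, kinases that sense unfolded protein in the endoplasmic reticulum (ER), amino acid shortage, double-stranded RNA or lack of heme phosphorylate the initiation factor eIF2, which lowers general translation while the mRNA of ATF4 is translated more. ATF4 then pairs with C/EBP factors on C/EBP-ATF response elements and activates genes for the synthesis, the import and the charging of amino acids. Aminoacyl-tRNA synthetases carry out the charging step, in which each amino acid is joined to its tRNA. RNA was measured in these data, and the amount of ATF4 protein was not.

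There were 6 groups of 2 biological replicates: wild-type cells (WT) at 0, 6 and 24 h of P/I, and cells in which part of the core regulatory element of the ETS1 promoter had been deleted by CRISPR/Cas9 (ΔCRE, labelled KO) at the same 3 time points. How many deleted clones the ΔCRE libraries come from is not given in the sources used here, so a difference between ΔCRE and WT cells cannot be told apart from a difference between clones. Expression was given as FPKM, fragment numbers scaled to the length of the transcript and the size of the library, which can be compared between genes. Where 2 values are given for a group, they are those of replicate 1 and replicate 2 in that order.

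ETS1 was lower in the ΔCRE libraries at each time point, between 62.2 and 62.8 FPKM at 6 h against between 139.2 and 145.2 FPKM in WT cells. A list of 6 markers that are high in MDA-MB-231 cells summed to between 3764 and 5447 FPKM in 11 libraries, and 10 markers of intestinal epithelium summed to between 2.21 and 3.46 FPKM there, with 9 of the 10 under 1 FPKM in each. A list of 6 genes that are low in this line summed to between 4.02 and 6.22 FPKM. The library labelled ΔCRE 0 h replicate 1 stood apart: there the intestinal markers summed to 10208.5 FPKM and the low list to 1320.5 FPKM. The high list summed to 9826.7 FPKM there, also above the other libraries. Within it S100A4 was at 4717.4 FPKM, above the other libraries, and VIM was at 1199.5 FPKM, below them. FPKM over all features summed to 1423335 in this library, against between 566255 and 651080 in the others. The correlation of this library with ΔCRE 0 h replicate 2 across features was 0.867, against between 0.978 and 0.984 for the replicates of the other groups. That library was therefore kept out of the tests and its values are given apart, so ΔCRE 0 h is represented by replicate 2 alone, which was assumed to vary like the other groups. Changes are differences of log2(FPKM + 1), tested with limma on the 11256 features whose FPKM averaged 1 or more, and "rose" and "fell" are used only where the Benjamini-Hochberg adjusted p over these features was under 0.05. The scale understates changes of genes with low FPKM, and since RNA came from whole cultures, a shift in the share of cells that express a gene and a shift in RNA per cell cannot be told apart.

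RefSeq promoter windows, from 250 bases before to 50 bases after a start site on GRCh38.p14, were at hand for 26 of the 32 genes. They are shown because the C/EBP-ATF response element, searched as TGATGNAAN on both strands, was found in the windows of 12 of these 26 genes. Of all 27305 genes with a window, 4.45% held it. By window it was 12 of 41, against 3.61% of all 35116 windows. Among the synthetases 7 of 10 held it, and among the other genes 5 of 16. The genes were listed by name as ATF4 targets and synthetases, so these shares are not a result of the expression data. Each sequence is written 5′ to 3′ on the strand of its gene, and capitals mark the match, as the motif itself or as its reverse complement.
CEBPG, chr19:33374061-33374089, plus strand: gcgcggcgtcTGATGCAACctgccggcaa
ASNS, chr7:97872458-97872486, minus strand: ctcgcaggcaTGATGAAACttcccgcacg
SLC3A2, chr11:62881725-62881748, plus strand: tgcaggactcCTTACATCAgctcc
SLC1A5, chr19:46784893-46784921, minus strand: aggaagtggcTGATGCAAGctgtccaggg
CHAC1, chr15:40953251-40953279, plus strand: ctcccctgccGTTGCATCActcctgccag
AARS, chr16:70289676-70289704, minus strand: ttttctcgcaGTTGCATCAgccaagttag
CARS, chr11:3057408-3057436, minus strand: cggggcggcgGTTGCATCAgattctagga
GARS, chr7:30594834-30594862, plus strand: ttacgcggcgATTTCATCAtgctccgagc
IARS, chr9:92293693-92293721, minus strand: ttttcagcgcGTTGCATCAcctccgtgcg
MARS, chr12:57488053-57488081, plus strand: gccggttccgGTTGCATCAgcgagggatt
NARS, chr18:57621804-57621832, minus strand: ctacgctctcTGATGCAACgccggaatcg
TARS, chr5:33440956-33440984, plus strand: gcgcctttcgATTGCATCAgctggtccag

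The form TGATGCAAC made up 7 of the 12 matches (CEBPG, CHAC1, AARS, CARS, IARS, MARS and NARS). The matches lay between 210 bases before and 45 bases after the start site of the window that held them. For CEBPG, ASNS, SLC3A2, SLC1A5, CARS, GARS and TARS, the gene also had a window at another start site without a match. ASNS and CHAC1 are the genes with large changes below whose window held the motif, and for them the 250 bases before the start site are given, with the match in capitals.
ASNS, chr7:97872409-97872658, minus strand: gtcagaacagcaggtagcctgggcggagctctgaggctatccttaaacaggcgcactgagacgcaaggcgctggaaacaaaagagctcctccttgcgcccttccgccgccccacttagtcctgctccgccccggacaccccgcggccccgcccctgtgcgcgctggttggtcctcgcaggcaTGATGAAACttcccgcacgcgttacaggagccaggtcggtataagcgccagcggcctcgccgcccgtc
CHAC1, chr15:40953221-40953470, plus strand: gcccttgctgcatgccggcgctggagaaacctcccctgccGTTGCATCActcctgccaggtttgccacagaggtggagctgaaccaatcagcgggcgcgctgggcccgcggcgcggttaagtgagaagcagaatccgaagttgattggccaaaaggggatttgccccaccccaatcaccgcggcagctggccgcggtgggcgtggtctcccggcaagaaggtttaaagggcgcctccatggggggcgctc

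The windows of ATF4, CEBPB, TRIB3, SESN2, DDIT4, VLDLR and SLC7A5 did not hold these letters. Neither did those of PSAT1, PHGDH, MTHFD2, SLC38A2, EPRS, SARS and WARS. This says nothing of other positions or of binding. No entry was found for PSPH, SHMT2, ALDH1L2, SLC7A11, LARS and YARS. A match is a description of the sequence and was not tested against the changes. IARS and TARS held a match and were not called in WT cells, while TRIB3, VLDLR, SARS and WARS held none and rose.

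In WT cells most of these genes rose after P/I, and CHAC1, VLDLR, TRIB3, ASNS and 8 synthetases rose from 6 h to 24 h. The comparisons at 6 h and 24 h share the 0 h libraries, and since none of the 12 libraries is from cells at 6 h or 24 h without P/I, the stimulus and time in culture cannot be told apart. At 6 h 18 of the 31 tested genes rose and 5 fell, where 44.4% of all features were called (23.3% higher and 21.1% lower). At 24 h 19 rose and 2 fell, where 54.6% of all features were called (26.5% higher and 28.2% lower). The median change of the 31 genes was 0.28 at 6 h and 0.52 at 24 h, against 0.00 and -0.02 over all features. FPKM over all features summed to 632022 and 637247 in the WT libraries at 6 h, against 600054 and 566255 at 0 h. Small changes at 6 h therefore depend on the scaling: that of ASNS went from 0.21 to 0.09 after rescaling to TPM. The shift over all features is given at the end. ALDH1L2 was below the filter and was not tested.

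**Figure D1:**
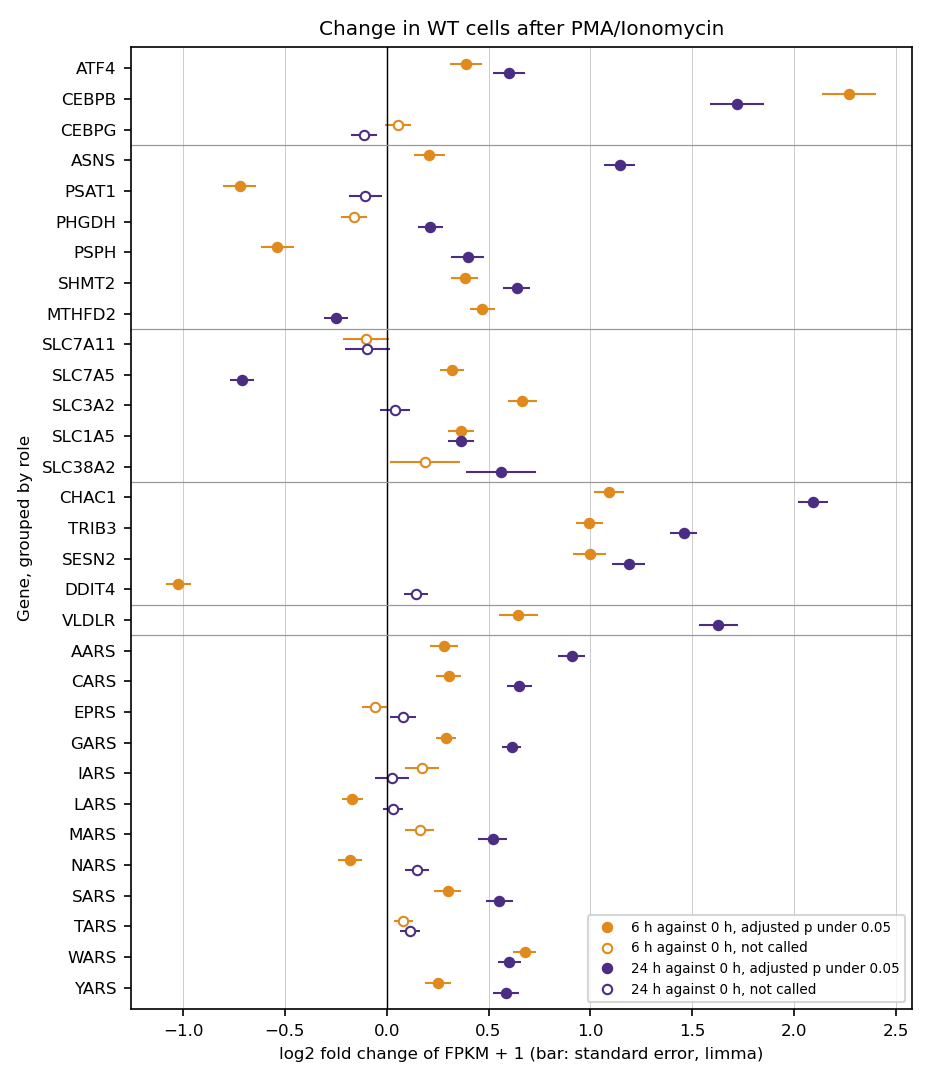
Log2 fold change of FPKM + 1 in WT cells at 6 h (orange) and 24 h (purple) against 0 h for the 31 tested genes, grouped by role. Points are limma estimates, bars are standard errors, and filled points have an adjusted p under 0.05. CEBPB stood at 2.27 at 6 h and CHAC1 at 2.09 at 24 h, and DDIT4 was at -1.02 at 6 h.

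ATF4 (hg19 chr22:39916568-39918691) had the highest level of the 32 genes in WT cells at 0 h. WT cells had 297 and 263 FPKM at 0 h, 367 and 365 FPKM at 6 h, and 429 and 418 FPKM at 24 h. ΔCRE cells had 269 FPKM at 0 h (replicate 2), 367 and 362 FPKM at 6 h, and 449.9 and 389 FPKM at 24 h. In each genotype the libraries did not overlap between time points, and the level was higher at each later one. In WT cells ATF4 rose by 0.39 (SE 0.0796, adjusted p = 0.00457, limma) at 6 h and by 0.60 (SE 0.0796, adjusted p = 0.000341, limma) at 24 h on the log2 scale, which is 1.31 and 1.52 times the 0 h mean. The step from 6 h to 24 h did not pass the test (0.21, adjusted p = 0.0566, limma). Reads may be shared with 4 annotated ATF4 pseudogenes.

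CEBPB (hg19 chr20:48807119-48809227), a C/EBP factor that pairs with ATF4, changed more than ATF4. It had 23.5 and 22.0 FPKM at 0 h, 118 and 110.1 FPKM at 6 h, and 87.4 and 68.3 FPKM at 24 h in WT cells, and 28.9 FPKM at 0 h (replicate 2), 144 and 163 FPKM at 6 h, and 113 and 91.0 FPKM at 24 h in ΔCRE cells. Every library at 6 h lay above every library at 24 h of the same genotype, and all of these lay above 0 h. It rose by 2.27 (SE 0.134, adjusted p = 4.61e-06, limma) at 6 h and stood 1.72 (SE 0.134, adjusted p = 1.92e-05, limma) above 0 h at 24 h, or 5.0 and 3.42 times the 0 h mean. The fall between 6 h and 24 h was -0.55 (SE 0.134, adjusted p = 0.00965, limma), and this call was lost without WT 24 h replicate 2 (-0.38, adjusted p = 0.0629) or without WT 6 h replicate 1 (-0.505, adjusted p = 0.0615). CEBPG, another dimer partner of ATF4, stayed between 13.1 and 15.4 FPKM over the 6 WT libraries and was not called there.

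**Figure D2:**
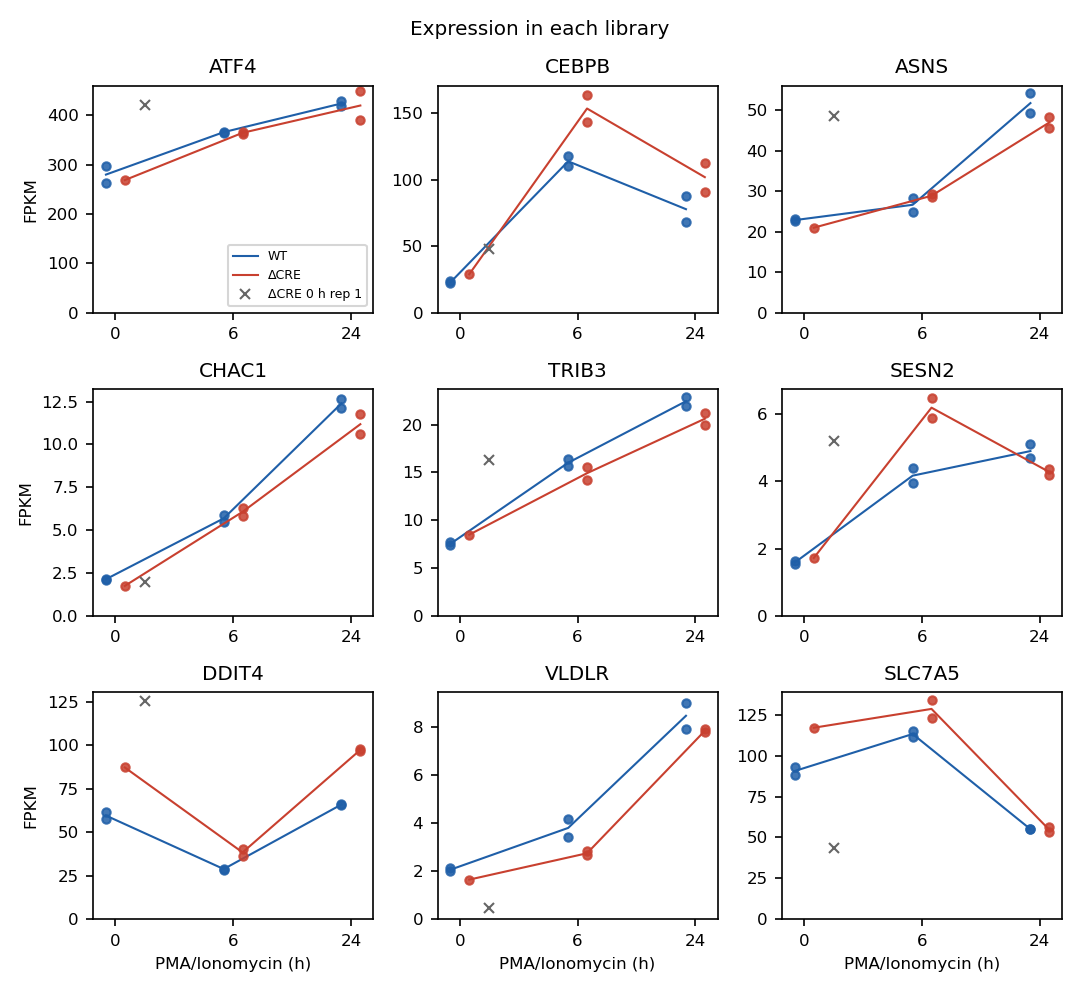
FPKM in each library (points) and group means (lines) at 0, 6 and 24 h of P/I for ATF4 and the 8 genes that changed by at least 1 on the log2 scale in a comparison without a single-library group. Time points are evenly spaced, blue is WT, red is ΔCRE, and the cross is the library labelled ΔCRE 0 h replicate 1, which is not in the means. DDIT4 and SLC7A5 turn downwards at 6 h and at 24 h, respectively, while CHAC1, TRIB3 and VLDLR climb at each step.

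The enzymes of asparagine and serine synthesis moved at different times. ASNS (hg19 chr7:97481428-97501854), which makes asparagine from aspartate, had 23.1 and 22.6 FPKM at 0 h, 24.9 and 28.3 FPKM at 6 h, and 49.2 and 54.3 FPKM at 24 h in WT cells. ΔCRE cells had 21.0 FPKM at 0 h (replicate 2), 29.2 and 28.5 FPKM at 6 h, and 45.6 and 48.3 FPKM at 24 h. The 24 h libraries of both genotypes stood clear above all others. ASNS rose by 1.14 (SE 0.0749, adjusted p = 7.18e-06, limma) at 24 h, 2.26 times the 0 h mean, and from 6 h to 24 h by 0.93 (SE 0.0749, adjusted p = 4.15e-05, limma). The change at 6 h was 0.21 (SE 0.0749, adjusted p = 0.0499, limma), a call at the threshold that was lost without any of 9 libraries (0.12, adjusted p = 0.291 without WT 6 h replicate 2) and after rescaling to TPM (0.09, adjusted p = 0.389). Reads may be shared with 5 annotated ASNS pseudogenes.

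PSAT1 and PSPH, the aminotransferase and the phosphatase of serine synthesis, fell at 6 h by 0.72 and 0.54 (adjusted p = 0.000185 and 0.000968, limma). From 6 h to 24 h they rose by 0.62 and 0.94 (adjusted p = 0.000469 and 5.99e-05), which left PSAT1 at -0.11 against 0 h (adjusted p = 0.293) and PSPH 0.40 above it (adjusted p = 0.00344). PSAT1 went from 61.5 and 68.3 FPKM to 39.2 and 38.7 FPKM and back to 58.1 and 62.3 FPKM, so the 0 h and 24 h libraries overlapped. PHGDH, the dehydrogenase that opens the pathway, was at -0.16 at 6 h (adjusted p = 0.0644, limma) and rose by 0.21 at 24 h (adjusted p = 0.018). That call was lost without WT 24 h replicate 1 (0.17, adjusted p = 0.119) or WT 0 h replicate 2 (0.18, adjusted p = 0.0905).

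The mitochondrial folate enzymes went apart. SHMT2, which turns serine into glycine and a folate-bound carbon unit, rose by 0.38 at 6 h and 0.64 at 24 h (adjusted p = 0.00197 and 9.14e-05, limma). MTHFD2, which oxidises that unit, rose by 0.47 at 6 h and was then below its starting level, at -0.25 against 0 h (adjusted p = 0.000382 and 0.00785). The last call was lost without WT 24 h replicate 1 (-0.21, adjusted p = 0.0582). ALDH1L2, which sends formyl-folate to carbon dioxide, had between 0.210 and 0.302 FPKM in the 4 WT libraries at 0 h and 6 h and 0.571 and 0.654 FPKM at 24 h. The 24 h libraries lay above the others, at a level too low for the test.

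Of the amino acid transporters, 3 of 5 rose at 6 h and none fell, where 44.4% of all features were called. At 24 h 2 rose and 1 fell, where 54.6% of all features were called. SLC7A5 (hg19 chr16:87863628-87903100), the light chain of the large neutral amino acid exchanger LAT1, had 92.8 and 88.4 FPKM at 0 h, 115 and 111 FPKM at 6 h, and 55.2 and 54.8 FPKM at 24 h in WT cells. ΔCRE cells had 117 FPKM at 0 h (replicate 2), 134 and 123 FPKM at 6 h, and 56.1 and 53.2 FPKM at 24 h. The 24 h libraries of both genotypes lay below all others. In WT cells SLC7A5 rose by 0.32 (SE 0.0591, adjusted p = 0.0028, limma) at 6 h and was at -0.71 (SE 0.0591, adjusted p = 2.77e-05, limma) at 24 h, and between 6 h and 24 h it fell by 1.03 (adjusted p = 9.01e-06, limma). SLC3A2, the heavy chain that SLC7A5 and SLC7A11 share, rose by 0.67 at 6 h (adjusted p = 0.00017) and was at 0.04 at 24 h (adjusted p = 0.664).

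SLC1A5, the glutamine transporter, rose by 0.36 at both times (adjusted p = 0.00235 at 6 h and 0.00175 at 24 h, limma). SLC38A2, a sodium-coupled importer of small neutral amino acids, rose by 0.56 at 24 h (adjusted p = 0.0229). Its WT libraries had 47.6 and 64.4 FPKM at 0 h and 73.9 and 91.6 FPKM at 24 h, and the call was lost without WT 0 h replicate 1 (0.35, adjusted p = 0.147) or WT 24 h replicate 2 (0.41, adjusted p = 0.136). SLC7A11, the cystine importer, stayed between 5.91 and 7.55 FPKM over the 6 WT libraries and was not called.

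CHAC1 (hg19 chr15:41245635-41248717), which degrades glutathione, showed the largest change of the 31 tested genes at 24 h. WT cells had 2.11 and 2.16 FPKM at 0 h, 5.89 and 5.48 FPKM at 6 h, and 12.1 and 12.7 FPKM at 24 h, and ΔCRE cells had 1.75 FPKM at 0 h (replicate 2), 5.84 and 6.29 FPKM at 6 h, and 11.8 and 10.6 FPKM at 24 h. Libraries of the 3 time points did not overlap in either genotype. In WT cells it rose by 1.09 (SE 0.0746, adjusted p = 1.09e-05, limma) at 6 h and by 2.09 (SE 0.0746, adjusted p = 2.68e-07, limma) at 24 h, or 2.66 and 5.80 times the 0 h mean. TRIB3 (hg19 chr20:361307-378203), a pseudokinase that restrains ATF4, followed the same order, with 7.69 and 7.38 FPKM at 0 h, 16.4 and 15.6 FPKM at 6 h, and 22.9 and 22.0 FPKM at 24 h in WT cells. ΔCRE cells had 8.49 FPKM at 0 h (replicate 2), 15.6 and 14.2 FPKM at 6 h, and 21.2 and 20.0 FPKM at 24 h. It rose by 1.0 (SE 0.0654, adjusted p = 8.72e-06, limma) at 6 h and by 1.46 (SE 0.0654, adjusted p = 9.59e-07, limma) at 24 h. Here too the libraries of the 3 time points were separate in each genotype.

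SESN2 (hg19 chr1:28585962-28609002), a sestrin that holds back mTORC1 when leucine is scarce, was low at 0 h and rose at both times. WT cells had 1.53 and 1.64 FPKM at 0 h, 4.38 and 3.95 FPKM at 6 h, and 5.11 and 4.68 FPKM at 24 h. ΔCRE cells had 1.72 FPKM at 0 h (replicate 2), 5.88 and 6.48 FPKM at 6 h, and 4.19 and 4.36 FPKM at 24 h. In WT cells it rose by 1.0 (SE 0.0815, adjusted p = 3.09e-05, limma) at 6 h and by 1.19 (SE 0.0815, adjusted p = 9.51e-06, limma) at 24 h. The WT libraries at 24 h lay above those at 6 h, while the ΔCRE libraries at 24 h lay below those at 6 h.

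DDIT4 (hg19 chr10:74033676-74035797), or REDD1, which also restrains mTORC1, went the other way at 6 h. WT cells had 61.5 and 57.7 FPKM at 0 h, 28.5 and 29.1 FPKM at 6 h, and 66.2 and 65.8 FPKM at 24 h, and ΔCRE cells had 87.3 FPKM at 0 h (replicate 2), 40.2 and 36.5 FPKM at 6 h, and 97.9 and 96.9 FPKM at 24 h. The 6 h libraries of each genotype lay below the other libraries of that genotype. In WT cells DDIT4 was at -1.02 (SE 0.0592, adjusted p = 4.13e-06, limma) at 6 h, 0.483 times the 0 h mean, and at 0.15 at 24 h (adjusted p = 0.0663, limma). The rise from 6 h to 24 h was 1.17 (SE 0.0592, adjusted p = 4.26e-06, limma).

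VLDLR (hg19 chr9:2535654-2654485), a lipoprotein receptor, rose at both times. WT cells had 1.99 and 2.13 FPKM at 0 h, 3.41 and 4.19 FPKM at 6 h, and 7.93 and 9.02 FPKM at 24 h. ΔCRE cells had 1.65 FPKM at 0 h (replicate 2), 2.67 and 2.82 FPKM at 6 h, and 7.91 and 7.79 FPKM at 24 h. The 24 h libraries of both genotypes lay above all others, and in each genotype the 6 h libraries lay above 0 h. It rose by 0.65 (SE 0.0954, adjusted p = 0.000862, limma) at 6 h and by 1.63 (SE 0.0954, adjusted p = 4.03e-06, limma) at 24 h, or 4.12 times the 0 h mean. The locus given for the feature starts 85528 bases upstream of the annotated gene. A given locus can be wider than its feature, so whether it holds reads of other transcripts is not known.

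**Figure D3:**
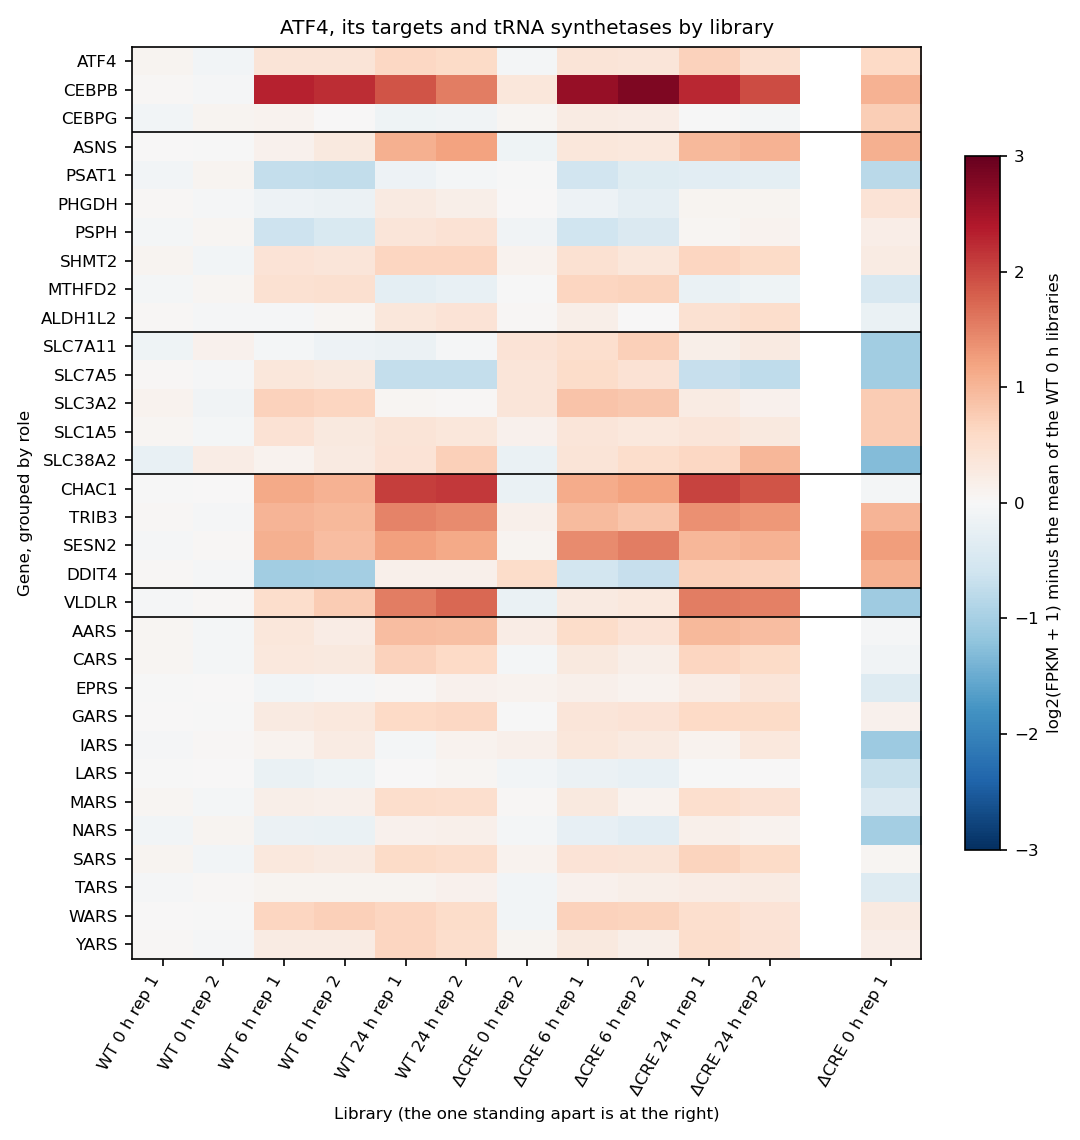
Log2(FPKM + 1) of each of the 32 genes in each library, minus the mean of the WT 0 h libraries, in rows grouped by role. Red is higher and blue is lower than WT 0 h, and the column at the right is the library labelled ΔCRE 0 h replicate 1. Replicates of a group share their colours, CEBPB, CHAC1, TRIB3, SESN2 and VLDLR are the darkest rows after P/I, and the column at the right differs from ΔCRE 0 h replicate 2.

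The synthetases that were called at 24 h were all higher than at 0 h. In WT cells 6 of 12 rose and 2 fell at 6 h, where 23.3% of all features were higher and 21.1% lower. At 24 h 7 rose and none fell, where 26.5% of all features were higher and 28.2% lower. The median change was 0.21 at 6 h and 0.54 at 24 h. AARS, for alanine, had 41.7 and 38.5 FPKM at 0 h, 50.8 and 47.1 FPKM at 6 h, and 76.5 and 75.5 FPKM at 24 h. It rose by 0.28 at 6 h (adjusted p = 0.0101, limma) and by 0.91 (SE 0.0680, adjusted p = 1.59e-05, limma) at 24 h, the largest change of a synthetase at that time. The 24 h libraries stood clear of the 6 h libraries, which stood clear of those at 0 h.

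The others that rose at 24 h were CARS for cysteine (0.65), GARS for glycine (0.61), WARS for tryptophan (0.60), YARS for tyrosine (0.59), SARS for serine (0.55) and MARS for methionine (0.52), with adjusted p between 1.87e-05 and 0.000452 by limma. WARS had 47.9 and 47.1 FPKM at 0 h, 74.9 and 78.3 FPKM at 6 h, and 74.7 and 70.6 FPKM at 24 h. Its 6 h libraries lay above its 24 h libraries, with a rise of 0.68 (SE 0.0568, adjusted p = 3.55e-05, limma) at 6 h and a step from 6 h to 24 h of -0.08 (adjusted p = 0.301). CARS, GARS, SARS and YARS rose at 6 h by 0.30, 0.29, 0.30 and 0.25 (adjusted p between 0.00145 and 0.0127, limma), and MARS was at 0.16 (adjusted p = 0.103).

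LARS for leucine and NARS for asparagine fell at 6 h by 0.17 and 0.18 (adjusted p = 0.0242 and 0.0372, limma) and stood at 0.03 and 0.15 at 24 h (adjusted p = 0.637 and 0.0649). EPRS (glutamate and proline), IARS (isoleucine) and TARS (threonine) were not called in WT cells, with changes against 0 h between -0.06 and 0.17. Over the 11 libraries EPRS ranged from 43.6 to 59.8 FPKM, IARS from 68.8 to 89.7 FPKM and TARS from 151 to 187 FPKM.

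The calls of AARS, LARS, YARS and NARS at 6 h were lost without single libraries. That of AARS was lost without WT 6 h replicate 1 (adjusted p = 0.0766) or WT 0 h replicate 2 (adjusted p = 0.0646), and that of LARS without WT 6 h replicate 1 (adjusted p = 0.139) or either WT 0 h library (adjusted p = 0.0787 without replicate 2 and 0.0549 without replicate 1). The call of YARS was lost without WT 0 h replicate 2 (adjusted p = 0.0694) or either WT 6 h library (adjusted p = 0.0631 and 0.0526), and that of NARS without any of 7 libraries (-0.11, adjusted p = 0.191 without WT 0 h replicate 2). The loci given for EPRS, YARS, SHMT2, MARS and SLC7A11 also reach past the annotated genes, by 95324 and 101511, 40848, 5757, 2948 and 136675 bases. EPRS has the same given locus as IARS2, and MARS the same as DDIT3, though these are separate features. A given locus can therefore be wider than its feature, and whether these features hold reads of other transcripts is not known. Annotated pseudogenes that may share reads were found for PSAT1, PSPH, MTHFD2, SLC7A5, AARS, CARS, GARS, NARS and WARS.

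Between 6 h and 24 h in WT cells, 17 of the 31 genes rose and 4 fell, where 46.8% of all features were called (20.5% higher and 26.3% lower). The median change was 0.26 (all features -0.04). The 4 that fell were CEBPB, MTHFD2, SLC7A5 and SLC3A2, with the last at -0.63 and MTHFD2 at -0.72. DDIT4, CHAC1, VLDLR, PSPH and ASNS rose by between 0.93 and 1.17, and 8 of 12 synthetases rose, led by AARS at 0.63. Besides that of CEBPB, given above, calls lost without 1 library were those of LARS (WT 6 h replicate 1, adjusted p = 0.0756, and WT 24 h replicate 2, adjusted p = 0.0733), SARS (WT 6 h replicate 2, adjusted p = 0.0732, and WT 24 h replicate 1, adjusted p = 0.0725) and SHMT2 (WT 6 h replicate 2, adjusted p = 0.0734, and WT 24 h replicates 1 and 2, adjusted p = 0.0618 and 0.0549), all by limma.

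Lists of genes related to this response were set beside the 32 genes in WT cells. Of 15 ER chaperones and targets of XBP1 or ATF6, the other arms of the unfolded protein response, all 15 rose in WT cells at 6 h, with a median of 0.99. HSPA5 (BiP, the main ER chaperone) led with 2.18, followed by SDF2L1 at 1.80, HERPUD1 at 1.78 and MANF at 1.31. HSPA5 had 296 and 295 FPKM at 0 h, 1314 and 1379 FPKM at 6 h, and 422 and 428 FPKM at 24 h. At 24 h 13 of the 15 were still above 0 h and 1 (SEL1L, -0.28) was below, with a median of 0.52, and between 6 h and 24 h 14 of the 15 fell and none rose. Over the same interval 4 of the 31 genes fell and 17 rose. Of all features 23.3% were higher at 6 h and 26.5% at 24 h, and 26.3% were lower at 24 h than at 6 h.

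Of 18 eIF2 kinases, eIF2 and eIF2B subunits and feedback genes, 4 rose and 4 fell at 6 h. That is close to the share of all features, of which 44.4% were called (23.3% higher and 21.1% lower). PPP1R15A (GADD34, which brings phosphatase to eIF2) rose by 2.06, the ER-linked inhibitor DNAJC3 by 0.94 and EIF2AK3 (PERK, the kinase of ER stress) by 0.77, while IMPACT, an inhibitor of the amino acid sensor GCN2, was at -0.52. PPP1R15A had 36.2 and 33.6 FPKM at 0 h, 155 and 142 FPKM at 6 h, and 62.3 and 62.2 FPKM at 24 h. At 24 h 4 rose and 7 fell, with PPP1R15A at 0.82, where 26.5% of all features were higher and 28.2% lower.

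Among 27 other genes known to be regulated by ATF4, 23 were tested, and NUPR1, FGF21, CBS and STC2 were below the filter. At 6 h 8 rose and 3 fell, led by CDKN1A (3.26), a cell cycle inhibitor, the cytokine GDF15 (1.81), TXNIP (-1.44), which curbs glucose uptake, and ATF3 (1.34). At 24 h 13 rose and 4 fell, led by CDKN1A (1.87), GDF15 (1.73), VEGFA (1.45) and PCK2 (1.21). CDKN1A, GDF15, TXNIP and VEGFA also answer to other pathways.

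Few synthetases outside the 32 genes were called higher at 24 h. Of 11 other cytosolic synthetases and scaffold proteins of their complex, 1 rose (HARS, 0.18) and 4 fell (FARSB -0.54, AIMP2 -0.46, AIMP1 -0.38 and KARS -0.19), with a median of 0.01. Of 17 mitochondrial synthetases 2 rose and 7 fell, with a median of -0.11, led by WARS2 (-0.45) and EARS2 (-0.39). For scale, the share of all features that rose was 26.5% by 24 h and 23.3% by 6 h. The share that fell was 28.2% by 24 h and 21.1% by 6 h. At 6 h the counts were 2 up and 1 down for the other cytosolic list and 2 up and 6 down for the mitochondrial list, and 1 of the 2 up in the cytosolic list is a feature that holds EEF1E1 together with BLOC1S5 and TXNDC5. These lists are set side by side as counts, and their difference from the 12 synthetases was not tested.

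Of 11 other enzymes of serine, glycine and folate metabolism, 9 were tested, and at 24 h 2 rose and 5 fell, with the feature that holds AMT and NICN1 together at 1.28, TYMS at -0.84 and GCSH at -0.81. At 6 h none rose and 2 fell. Of 9 sestrins and other mTORC1 regulators 4 were tested: at 24 h TSC1 (0.46) and TSC2 (0.30) rose, and SESN1 (-0.50) and RHEB (-0.25) fell, and at 6 h 2 rose and 1 fell.

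**Figure D4:**
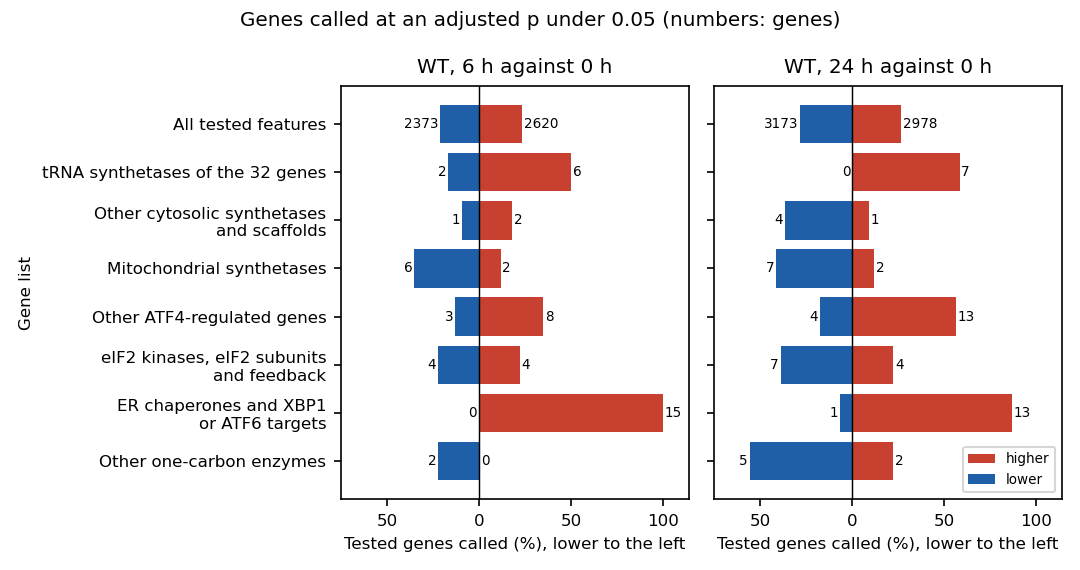
Share of tested genes called higher (red, to the right) or lower (blue, to the left) in WT cells at 6 h and 24 h against 0 h, for all features, the 12 synthetases and the lists of related genes, with the number of genes at each bar. All 15 ER genes were higher at 6 h and 13 at 24 h, and 7 of the 12 synthetases but 1 of the other cytosolic list were higher at 24 h.

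ΔCRE cells were compared with each other over time to ask whether the course of these genes was the same with part of the element deleted. Between 6 h and 24 h, where both groups have 2 libraries, 16 of the 31 genes rose and 8 fell, where 49.6% of all features were called (22.1% higher and 27.5% lower). DDIT4 (1.32), VLDLR (1.24), CHAC1 (0.78), ASNS (0.68) and PSPH (0.60) rose most, and SLC7A5 (-1.22), MTHFD2 (-0.83), SLC3A2 (-0.65) and CEBPB (-0.59) fell most, with adjusted p up to 0.00651 by limma. The other 4 that fell were SESN2 (-0.44), SLC7A11 (-0.39), CEBPG (-0.27) and WARS (-0.22). After rescaling to TPM 19 rose and 5 fell, and after quantile normalization 22 rose and 7 fell.

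Of the synthetases 8 rose and WARS fell, with AARS (0.46) and NARS (0.42) at the top. Calls between 6 h and 24 h that did not survive the loss of a library were MARS (adjusted p = 0.0884 without ΔCRE 6 h replicate 2 and 0.0765 without ΔCRE 24 h replicate 1), YARS (0.0825 and 0.0821 without the same libraries), SHMT2 (0.152 and 0.127 without the same libraries, and 0.0523 without ΔCRE 24 h replicate 2), SLC7A11 (0.119 and 0.101 without the first pair), SARS (0.132 without ΔCRE 24 h replicate 1, 0.0954 and 0.0611 without ΔCRE 6 h replicate 2 and 1) and WARS (0.0802 without ΔCRE 24 h replicate 2 and 0.061 without ΔCRE 6 h replicate 1), all adjusted p by limma.

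Against ΔCRE 0 h replicate 2 alone, 17 of the 31 genes rose and 3 fell at 6 h (29.8% of all features called, 16.8% higher and 13% lower), and 17 rose and 2 fell at 24 h (41.5% called, 20.6% higher and 21% lower). After rescaling to TPM or quantile normalization the 6 h counts were 12 and 6. CEBPB was at 2.37, SESN2 at 1.40, CHAC1 at 1.36 and DDIT4 at -1.17 at 6 h, and CHAC1 (2.15), CEBPB (1.77), VLDLR (1.74), TRIB3 (1.19) and ASNS (1.13) were the 5 highest at 24 h. TARS, not called in WT cells, rose by 0.23 at 6 h and 0.31 at 24 h (adjusted p = 0.0192 and 0.00334, limma), the first of which was lost without ΔCRE 6 h replicate 2 (adjusted p = 0.0717). At 6 h the calls of CARS, PSPH, SHMT2 and SARS were lost without ΔCRE 6 h replicate 1 (adjusted p = 0.0843, 0.059, 0.0882 and 0.0835, limma), and that of SARS also without replicate 2 (adjusted p = 0.0607). That of SLC38A2 was lost without any of 4 libraries (up to adjusted p = 0.14, without ΔCRE 6 h replicate 2), that of AARS without any of 7 (up to 0.153, without ΔCRE 6 h replicate 1), and that of PSAT1 at 24 h without any of 6 (up to 0.111, without ΔCRE 24 h replicate 1). The ER list was again higher throughout at 6 h (15 of 15, median 1.05).

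Between the genotypes few of these genes were called, and no synthetase and none of the 6 tested synthesis enzymes was. At 6 h 3 of the 31 genes were higher in ΔCRE cells and none was lower, where 9.83% of all features were called (3.62% higher and 6.22% lower). At 24 h 1 was higher and none lower (6.33% of features, 2.35% higher and 3.97% lower), and at 0 h, with the single ΔCRE library, 2 were higher (1.69% of features, 0.657% higher and 1.03% lower). The median difference was 0.10 at 6 h and -0.02 at 24 h, against 0.01 over all features at both times. In both directions together, the share called was close to that of all features at 6 h and below it at 24 h, and was above it at 0 h, where it rests on a single ΔCRE library. The 6 h count fell to 1 without WT 6 h replicate 2 or without ΔCRE 6 h replicate 2, and with the replicate block it was 10, against 1805 of 11256 features.

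DDIT4 was higher in ΔCRE cells at every time point, as the values above show: at each time the ΔCRE libraries lay above both WT libraries. The difference was 0.40 (SE 0.0592, adjusted p = 0.00487, limma) at 6 h, 0.56 (SE 0.0592, adjusted p = 0.00165, limma) at 24 h, and 0.54 (SE 0.0725, adjusted p = 0.0101, limma) at 0 h with replicate 2 alone, where the library labelled ΔCRE 0 h replicate 1 had 126 FPKM. The 6 h call was lost without WT 6 h replicate 1 (0.39, adjusted p = 0.0503). FPKM over all features summed to 1423335 in the library labelled ΔCRE 0 h replicate 1, against 577416 in replicate 2. Its 126 FPKM of DDIT4 were not rescaled for this. Features within 5 Mb of DDIT4 were also higher in ΔCRE cells. Of 62 such features 56 at 6 h and 57 at 24 h had a positive difference, with medians of 0.36 and 0.37, and 38 were called higher at each time. The part of this regional shift in the value of DDIT4 was not tested.

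SLC7A11 was higher in ΔCRE cells at 6 h, and it was named with its libraries after its values were seen. WT cells had 6.04 and 7.55 FPKM at 0 h, 6.43 and 6.03 FPKM at 6 h, and 5.91 and 6.63 FPKM at 24 h. ΔCRE cells had 9.37 FPKM at 0 h (replicate 2), 10.1 and 11.7 FPKM at 6 h, and 7.71 and 8.43 FPKM at 24 h. At each time these ΔCRE libraries lay above both WT libraries, while the library labelled ΔCRE 0 h replicate 1 had 2.75 FPKM, below both WT 0 h libraries. The difference was 0.71 (SE 0.111, adjusted p = 0.00624, limma) at 6 h and 0.32 at 24 h (adjusted p = 0.141), and the call at 6 h was lost without WT 6 h replicate 2 (0.68, adjusted p = 0.0527) or ΔCRE 6 h replicate 2 (0.62, adjusted p = 0.0517). The 13 features within 5 Mb of it had a median difference of 0.00 at 6 h, and none was called higher.

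SESN2 was higher in ΔCRE cells at 6 h by 0.48 (SE 0.0815, adjusted p = 0.00923, limma) and was at -0.16 at 24 h (adjusted p = 0.308). The call at 6 h was lost without WT 6 h replicate 2 (0.42, adjusted p = 0.0734) or ΔCRE 6 h replicate 2 (0.42, adjusted p = 0.0674). The 122 features within 5 Mb had a median difference of 0.02 at 6 h. SLC7A5 was called at 0 h, at 0.37 (SE 0.0723, adjusted p = 0.0495, limma), against the single ΔCRE library, and the call was lost without any of 10 libraries (adjusted p = 0.144 without WT 0 h replicate 2). With all 12 libraries it was -0.34.

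Several genes came near the threshold without passing it. VLDLR stood at -0.35 at 6 h (adjusted p = 0.054, limma), with both ΔCRE libraries below both WT libraries. CEBPB stood at 0.43 at 6 h and 0.39 at 24 h (adjusted p = 0.0885 and 0.139), with ΔCRE above WT in all libraries at both times. PSPH stood at -0.31 at 24 h (adjusted p = 0.0621). ATF4 was at -0.01 (SE 0.0796) at 6 h and -0.02 (SE 0.0796) at 24 h, and the extremes among the 12 synthetases were NARS (-0.10) and AARS (0.20) at 6 h, and WARS (-0.14) and EPRS (0.21) at 24 h.

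**Figure D5:**
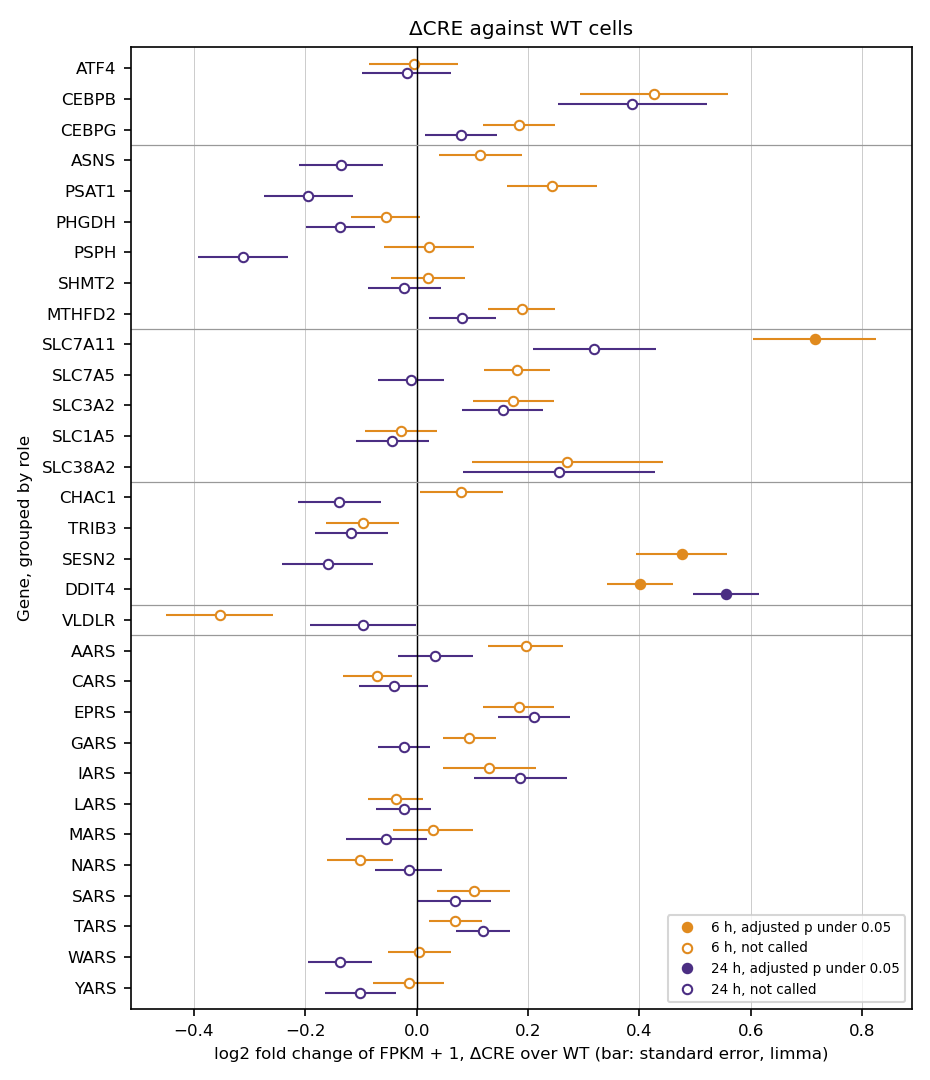
Difference between ΔCRE and WT cells in log2(FPKM + 1) at 6 h (orange) and 24 h (purple) for the 31 tested genes. Points are limma estimates, bars are standard errors, and filled points have an adjusted p under 0.05. DDIT4 at both times and SLC7A11 and SESN2 at 6 h are filled, and ATF4 lies at the zero line.

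Whether the time course itself differed between genotypes was tested as an interaction. For the change from 0 h to 6 h this rests on ΔCRE 0 h replicate 2 alone, so a lack of calls there says less. The change from 6 h to 24 h has 2 libraries in each group. None of the 31 genes was called for the change from 0 h to 6 h (0.267% of features, 0.08% higher and 0.187% lower) or from 6 h to 24 h (0.16% of features, 0.142% higher and 0.0178% lower) by limma, and 3 and 5 of them had an unadjusted p under 0.05. SESN2 had the largest difference from 6 h to 24 h, with 0.19 in WT cells (adjusted p = 0.0856) and -0.44 in ΔCRE cells (adjusted p = 0.00229), a difference of -0.64 (SE 0.115, adjusted p = 0.129, limma). PSAT1 was next in size, at 0.62 in WT and 0.18 in ΔCRE cells, a difference of -0.44 (SE 0.114, adjusted p = 0.38, limma).

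Of the related lists, the other ATF4-regulated genes held the most calls between the genotypes at 6 h. At 6 h 4 of 23 were higher and 4 lower in ΔCRE cells, led by GDF15 (0.85), CEBPD (-0.75), TXNIP (-0.72) and DDIT3 (0.63). DDIT3 (CHOP, which ATF4 activates in ER stress) had 22.2 and 20.2 FPKM at 0 h, 52.7 and 55.9 FPKM at 6 h, and 37.4 and 34.5 FPKM at 24 h in WT cells and 24.9 FPKM at 0 h (replicate 2), 84.8 and 84.2 FPKM at 6 h, and 42.6 and 40.9 FPKM at 24 h in ΔCRE cells. At 24 h GDF15 was the only 1 of the 23 called, at 0.83 (adjusted p = 0.00261, limma). In the ER list 2 of 15 (PDIA4, 0.21, and CRELD2, 0.34) were higher at 6 h and none at 24 h, and among the eIF2 kinases, subunits and feedback genes GCN1L1, the partner of GCN2, was lower at both times (-0.30 and -0.35) and EIF2B3, a subunit of eIF2B, was higher at 24 h (0.27). In the mTORC1 list TSC1 was lower at 6 h (-0.30), and in the serine and folate list the feature of AMT and NICN1 was lower at 24 h (-0.74). The other cytosolic synthetases had 1 gene called at 6 h (FARSB, 0.32) and the mitochondrial synthetases 1 at each time (MARS2, -0.29 at 6 h, and IARS2, 0.30 at 24 h). Of all features 9.83% were called at 6 h and 6.33% at 24 h, and the counts of these lists were not tested against those shares.

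Over the 6 comparisons without a single-library group, 28 of the 32 genes were called at least once, where 77.4% of all tested features were. The 4 others were EPRS, IARS and TARS, which passed the filter, and ALDH1L2, which did not.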

How the data were processed

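RNA-seq was carried out on 12 libraries, which the labels place by genotype, hours of P/I and replicate. The authors aligned reads of stranded mRNA libraries with TopHat 2.0.12 (hg19), ran Cufflinks 2.2.1 on them and deposited FPKM for 24331 features (tool versions per the submitters' processing notes and the methods). The annotation and any scaling between libraries are not given in the sources used here. Of the 12 columns, 0 were left unused. In the second column of ΔCRE 6 h and of ΔCRE 0 h, the name has a digit 1 where the others have an H; no other sample matches these names. FPKM keep no counts, so absolute depth is unknown. From the steps of low values, depth relative to WT 0 h replicate 1 was between 0.730 (ΔCRE 6 h replicate 1) and 1.19 (ΔCRE 24 h replicate 2).

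From the deposited FPKM, log2(FPKM + 1) was fitted with limma 3.58.1 in R 4.3.3 (lmFit, eBayes with trend) as 1 model of 6 groups on 11 libraries, without ΔCRE 0 h replicate 1, for the 11256 features whose FPKM averaged 1 or more over these libraries. Tests were two-sided, adjusted by Benjamini-Hochberg over these features, and called at 0.05. The script was tested on simulated data. The genes, the related lists and the library left out were chosen with earlier results of these data known. Values in every library are given for ATF4 and for genes called with a change of at least 1 (log2) in a comparison without a single-library group. Other called genes are named with their change, and up to 4 genes are named per related list, those with the largest called changes, except that some are not reported here. SLC7A11, AARS, WARS and 3 related genes (HSPA5, PPP1R15A and DDIT3) are shown by library after their values were seen. If a gene of a related list had more than 1 feature, the one of highest mean FPKM was used. The same number marks replicates in each group, but deviations from the group means correlated between same-numbered libraries at between -0.0676 and 0.202, so the numbers were not taken as pairs. Gene positions are those of hg19, compared with GENCODE for GRCh37. Promoter windows are from RefSeq (GRCh38.p14), and older synthetase symbols were matched through RefSeq synonyms. The alternatives changed the pseudocount (0.1), the filter (none, or an average of 5), the scaling (quantile, TPM), added a replicate block, or used eBayes without trend, all 12 libraries, separate fits or all libraries but 1. P-values rest on 1 estimate per feature of the spread within groups, pooled over all groups and moderated over features by eBayes. ΔCRE 0 h, with a single library, adds nothing to that estimate. The libraries of a group are stated to be biological replicates.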

Additional observations from a re-analysis of the deposited data

Results flagged for a closer look

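The library labelled ΔCRE 0 h replicate 1, used in no comparison, differed from the other 0 h libraries in many of these genes. Its FPKM over all features summed to 1423335, against between 566255 and 651080 in the other libraries. The values given here were not rescaled to an equal sum, so higher FPKM in it need not mean a larger share of its RNA. This library had 47.7 FPKM of CEBPB, 48.6 of ASNS, 16.3 of TRIB3, 5.19 of SESN2 and 125.6 of DDIT4, each above both WT 0 h libraries and ΔCRE 0 h replicate 2. Others were below these 3 libraries, with 2.75 FPKM of SLC7A11, 43.6 of SLC7A5, 21.8 of SLC38A2, 0.457 of VLDLR, 32.9 of IARS and 25.3 of NARS. The 10 intestinal markers summed to 10208.5 FPKM there. Of the 32 genes 24 differed by over 0.3 (log2) between the ΔCRE 0 h replicates, against 0 to 2 in the other groups.

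SESN2 moved in opposite directions from 6 h to 24 h, upwards in both WT libraries and downwards in both ΔCRE libraries. The difference of the changes was -0.64 on the log2 scale and did not pass the test (adjusted p = 0.129, limma).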

How the results depend on the processing

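The counts below are of called genes among the 32. Of 134 called changes or differences, 134 kept direction and call with a pseudocount of 0.1 and with a replicate block, and 128, 125 and 124 did so with no filter, quantile normalization and TPM. With all 12 libraries 46 did, and the counts were 7 (23 as reported), 11 (21) and 5 (21) for WT at 6 h and 24 h against 0 h and 24 h against 6 h, 6 (24) for ΔCRE at 24 h against 6 h, 6 (20) and 11 (19) for ΔCRE at 6 h and 24 h against 0 h, and 0 (3), 0 (1) and 0 (2) between genotypes at 6, 24 and 0 h. Then ASNS was at -0.15 in ΔCRE at 6 h against 0 h, PSAT1 at 0.10 at 24 h against 0 h, and SLC7A5 at -0.34 between genotypes at 0 h. That library stands apart, as described above. With the replicate block the genotype counts were 10, 3 and 4 at 6, 24 and 0 h, and it ended no call. Separate fits gave 12 for ΔCRE at 6 h against 0 h and 0 between genotypes at 0 h, where eBayes without trend, no filter and a filter at an average FPKM of 5 each gave 1. The cause was not tested.

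Without 1 library the counts were 18 to 23, 19 to 22 and 18 to 23 in WT cells, 20 to 25, 15 to 21 and 18 to 20 in ΔCRE cells (24 h against 6 h, then 6 h and 24 h against 0 h), and 1 to 3, 1 to 1 and 1 to 1 between genotypes. The count of 1 at 6 h came without WT 6 h replicate 2 and without ΔCRE 6 h replicate 2. Without ΔCRE 0 h replicate 2 the comparisons with ΔCRE 0 h gave no value.

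Over all features 1107, 712 and 190 were called between genotypes at 6, 24 and 0 h, against 20, 17 and 17 with all 12 libraries, 1805, 1407 and 655 with the block, and 717, 324 and 111 in separate fits. In WT cells 4993, 6151 and 5267 were called, against 857, 1221 and 582 with all 12 libraries. TPM shifted the median of all features at 6 h against 0 h from 0.00 to -0.12 in WT and from 0.00 to -0.13 in ΔCRE. It gave 1894 higher and 3513 lower in place of 2620 and 2373 in WT and 1201 and 2578 in place of 1895 and 1464 in ΔCRE. At 24 h against 6 h it gave 3208 and 1780 in place of 2303 and 2964 in WT, and 3219 and 2082 in place of 2489 and 3097 in ΔCRE, and between genotypes at 24 h 180 and 548 in place of 265 and 447. Each group had 2 libraries, and the depth of a library is unknown.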
